A study of Mus musculus with 24 samples.

Results

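The 10 genes described here are secreted regulators of the transforming growth factor beta superfamily, followed through the epithelium of the pubertal mouse mammary gland. They were the TGF-beta ligands Tgfb1, Tgfb2 and Tgfb3, the activin and inhibin beta subunits Inhba and Inhbb, the bone morphogenetic proteins Bmp2, Bmp4 and Bmp7, and the activin antagonists Fst and Fstl3. The 10 genes were taken by name from the 27179 genes of the count table, and all 10 passed the filter on low counts that left 18109 genes for testing. Bulk RNA-seq was run on 24 libraries in 12 groups of 2, each a population sorted by flow cytometry from microdissected terminal end buds (TEBs, the club-shaped growing tips of pubertal ducts) or from the ducts behind them. All groups were Lin- EpCAM+ cells of mice that carried a reporter. Mice of the model Elf5-rtTA-IRES-GFP gave basal cells (CD29hi), GFP+ luminal cells and GFP- luminal cells (CD29lo), each from TEBs and from ducts. Mice of the model PR-cre/Rosa26-LSL-eYFP gave basal cells, YFP- luminal cells and YFP+ luminal cells in the same way. Elf5 is a transcription factor of alveolar and luminal progenitor cells and PR is the progesterone receptor of hormone-sensing cells, so GFP+ cells are set beside YFP- cells and GFP- cells beside YFP+ cells below. These are pairs of gates by reporter direction and not the same gate, and the mouse models differ in their whole genotype. The labels state neither the ages of the mice nor whether replicates of a group came from separate animals. The p-values below therefore rest on the spread among these libraries, which may be technical.

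Ligands of this superfamily bind pairs of type I and type II serine/threonine kinase receptors. TGF-beta and activins act mainly through SMAD2 and SMAD3, and BMPs through SMAD1, SMAD5 and SMAD9. Activins are dimers of beta subunits, and follistatin (Fst) and follistatin-like 3 (Fstl3) bind activins and keep them from their receptors. In the mammary gland TGF-beta is known as an inhibitor of ductal growth and branching, and activin/inhibin beta B is required for normal ductal elongation.

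The libraries held 31264622 to 52495208 counts. A floor of detection of 3 counts stood for 0.057 to 0.096 CPM (counts per 1 000 000) on these unscaled totals. All other CPM values are on TMM-scaled library sizes. Elf5 lay between 410.1 and 1657 CPM in GFP+/YFP- luminal libraries, against 15.03 to 87.3 CPM in GFP-/YFP+ libraries. Pgr lay between 13.2 and 73.3 CPM in GFP+/YFP- libraries, against 202 to 635 CPM in GFP-/YFP+ libraries, and Itgb1 (CD29) between 1269 and 1574 CPM in basal libraries, against 498 to 713 CPM in luminal ones. The labels therefore held in these genes. A pair of libraries stood apart. Summed transcripts of 8 keratinocyte markers reached 2130 CPM in replicate 2 of luminal GFP- ducts and 405 CPM in replicate 2 of luminal YFP- TEBs, against 5.82 to 70.3 CPM in the other 22, with Krt1 and Krt10 leading and Flg at 0 in both; results that rest on them are also given without them. All 6 basal markers (Krt5, Krt14, Acta2, Myh11, Trp63 and Oxtr) were lower in basal TEBs, where they summed to 5327 to 11144 CPM, against 24338 to 26662 CPM in basal ducts. In luminal libraries they summed to at most 145 CPM, apart from 3312 and 809 CPM in the pair with keratinocyte transcripts. Of the 5 luminal progenitor markers in GFP+/YFP- cells, Cd14 was lower in TEBs than in ducts without overlap, and Elf5, Kit, Aldh1a3 and Trf overlapped; they summed to 3034 to 6023 CPM in TEBs, against 7245 to 48267 CPM in ducts, with Trf alone at 591 to 3898 CPM in TEBs, against 2378 to 45236 CPM in ducts. In basal cells, sums were lower in TEBs without overlap for 5 luminal markers (382 to 603 CPM in TEBs, against 733 to 908 CPM in ducts), the luminal progenitor markers (109 to 121, against 202 to 341), 6 immune markers (4.41 to 8.79, against 23.6 to 51.9) and 4 adipocyte markers (2.92 to 7.55, against 11.98 to 43.1). Those of 6 endothelial and pericyte markers overlapped (9.73 to 28.4 in TEBs, against 19.3 to 87.8 in ducts). Single progenitor markers went both ways in basal cells. Kit (56.8 to 86.8 CPM in TEBs, against 4.93 to 7.76 in ducts) and Aldh1a3 (9.43 to 12.5, against 1.28 to 5.31) were higher in TEBs. Trf (5.36 to 43.3, against 160 to 325) and Cd14 (0.65 to 1.38, against 1.57 to 7.54) were lower, and Elf5 overlapped. Of the luminal markers, Epcam overlapped in basal cells. The part of these shifts in the TEB results was not tested. The 7 fibroblast markers, all detected in basal libraries, summed to 368 to 1235 CPM in basal TEB libraries, 318 to 866 CPM in basal duct libraries and 15.5 to 172 CPM in luminal libraries. Their part in the basal results was not tested. In sorted bulk samples, fewer cells of a type and less RNA per cell cannot be told apart.

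Promoter sequences are shown for some of the members whose patterns were opposed. Tgfb2 and Inhba marked opposite luminal gates, and Fstl3 and Inhbb had basal TEB differences of opposite sign over both models, that of Inhbb resting on the Elf5 mice. The RefSeq table (GRCm38.p6) held 6 of the 10 members, and the 250 bases before the listed start of 4 of them are printed 5′ to 3′ on the gene's strand, with matches to the searched motifs in capitals. They lie at chr1:186705990-186706239 on the minus strand (Tgfb2), chr13:16011601-16011850 on the plus strand (Inhba), chr1:119422249-119422498 on the minus strand (Inhbb) and chr10:79777024-79777273 on the plus strand (Fstl3). Those of Tgfb2 and Inhba fall inside the genes' own annotated spans, since each gene has a further start upstream.
Tgfb2: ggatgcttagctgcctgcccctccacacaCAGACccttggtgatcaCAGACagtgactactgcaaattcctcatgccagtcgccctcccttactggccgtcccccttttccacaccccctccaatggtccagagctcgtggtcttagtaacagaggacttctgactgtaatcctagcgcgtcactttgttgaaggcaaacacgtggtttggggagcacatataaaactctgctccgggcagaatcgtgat
Inhba: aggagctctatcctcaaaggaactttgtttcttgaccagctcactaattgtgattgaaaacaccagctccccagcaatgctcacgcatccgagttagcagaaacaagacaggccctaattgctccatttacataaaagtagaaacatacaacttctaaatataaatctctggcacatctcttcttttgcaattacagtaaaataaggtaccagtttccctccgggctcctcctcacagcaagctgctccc
Inhbb: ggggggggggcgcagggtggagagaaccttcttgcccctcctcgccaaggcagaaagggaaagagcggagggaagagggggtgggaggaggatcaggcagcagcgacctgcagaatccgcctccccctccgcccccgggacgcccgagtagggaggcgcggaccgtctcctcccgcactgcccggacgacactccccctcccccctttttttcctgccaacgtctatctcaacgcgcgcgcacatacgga
Fstl3: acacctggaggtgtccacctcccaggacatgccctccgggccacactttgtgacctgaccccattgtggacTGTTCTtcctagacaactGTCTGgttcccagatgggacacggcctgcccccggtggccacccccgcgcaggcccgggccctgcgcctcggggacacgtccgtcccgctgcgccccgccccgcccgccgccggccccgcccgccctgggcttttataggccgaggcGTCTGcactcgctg
The motifs were searched on both strands. The SMAD box CAGAC, which reads GTCTG on the other strand, occurred in 42.1% of 27025 promoter windows of this length, with 2 matches each in Tgfb2 and Fstl3 and none in Inhba and Inhbb. The progesterone receptor half-site TGTTCT, found in 16.2% of windows, occurred once in Fstl3. The GC-rich SMAD site GGCGCC (9.5% of windows), the ETS core CGGAAG (13.8%) and the AP-1 site TGANTCA (6.9%) had no match in these 4 windows. That says only that the letters are not there. Of the windows not printed, that of Bmp4 held 1 ETS core match, and that of Tgfb1 no match to any searched motif. The base composition of the windows spanned a wide range, with 43.2% GC for Inhba, 53.6% for Tgfb2, 68.0% for Inhbb and 71.2% for Fstl3, beside a median of 52.0% over all windows.

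Levels of different genes were compared per kilobase of gene length. Per length, basal cells were led by Fst and Bmp7, GFP+/YFP- luminal cells by Tgfb3 and Inhbb, and YFP+ luminal cells by Inhbb. In GFP- cells Fst (362 CPM per kb) and Inhba (51.9) stood above Inhbb (39.0) in TEBs, whereas Inhbb (45.2) and Fst (43.4) were close in ducts. In basal TEBs Fst averaged 140.3 ± 21.4 CPM per kb and Bmp7 97.9 ± 7.39 CPM per kb (SD, n = 4 libraries over both models), with Tgfb3 next at 23.4 ± 4.04 CPM per kb. In ducts, GFP+/YFP- luminal cells had 227 ± 40.3 CPM per kb of Tgfb3 and 192 ± 45.6 CPM per kb of Inhbb. Bmp2 and Bmp4 stayed under 1 CPM per kb on average in all but a pair of the 6 population and site combinations, the exceptions being Bmp2 in luminal ducts. Bmp2 averaged 3.56 ± 3.80 CPM per kb in GFP+/YFP- ducts, carried by the GFP+ gate, and 1.18 ± 2.07 CPM per kb in GFP-/YFP+ ducts, carried by replicate 2 of GFP- ducts, the library with most keratinocyte transcripts (4.29 CPM per kb, against 0.079 to 0.21 in the other 3).

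**Figure D1:**
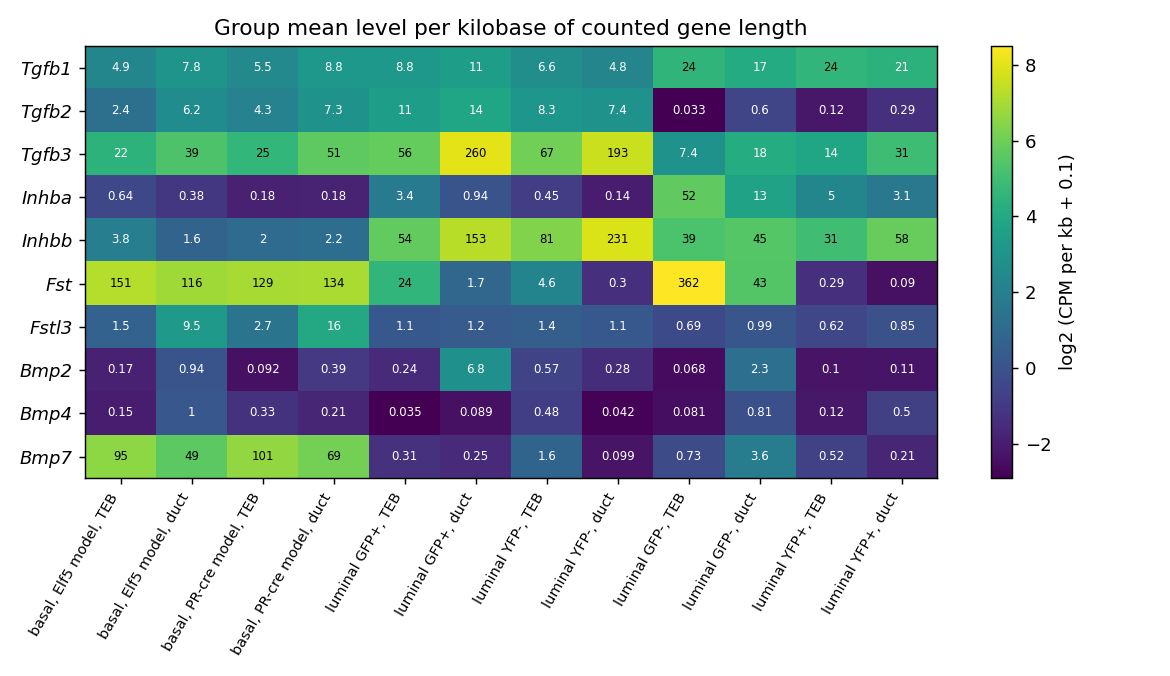
Mean level per kilobase of gene length of the 10 genes in the 12 groups of 2 libraries, printed in each cell, with TEBs left of ducts in each sorted population (colour, log2 scale after a small constant was added). Fst and Bmp7 lead in basal cells, Tgfb3 and Inhbb lead in GFP+ and YFP- luminal ducts, and Fst in GFP- TEBs stands at 362 CPM per kb.

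Counts of members past the threshold (called, an adjusted p under 0.05 over all genes tested) were close to the share of all genes in several comparisons, and are read against it. Between TEBs and ducts, 4 of the 10 genes differed in basal cells, 1 higher and 3 lower, where 43.6% of all genes were called; the members' median log2 difference was -0.80, beside -0.04 over all genes. In luminal cells taken over the 4 gates, 6 differed, 2 higher and 4 lower, where 38.7% of genes were called; the median was -0.50, beside 0.00. Basal and luminal cells differed in 7 members within TEBs, 4 higher and 3 lower in basal cells (58.8% of genes called), and in 8 within ducts, 4 in each direction (63.3% of genes). GFP+/YFP- and GFP-/YFP+ luminal cells differed in 6 members within TEBs, 4 higher and 2 lower in GFP+/YFP- cells (47.6% of genes), and in 6 within ducts, 3 in each direction (47.9% of genes).

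Tgfb3 was the TGF-beta isoform with the most transcript per length in basal and in GFP+/YFP- luminal cells, and it was lower in TEBs than in ducts in every gate by its mean. GFP+ luminal cells had 211 and 167 CPM in TEBs, against 917 and 845 CPM in ducts. YFP- cells had 211 and 242 CPM in TEBs, against 682 and 625 CPM in ducts. TEB and duct libraries of these gates did not overlap, and the duct values were the highest of all 12 groups. GFP- cells had 26.1 and 24.01 CPM in TEBs, against 55.4 and 64.3 CPM in ducts, and YFP+ cells 61.5 and 34.9 CPM in TEBs, against 145 and 65.4 CPM in ducts. Here too TEBs lay below ducts without overlap within each gate, although 61.5 CPM in 1 YFP+ TEB library came close to 65.4 CPM in a duct library. Over the luminal gates Tgfb3 fell by 1.53 ± 0.16 on the log2 scale in TEBs (SE; adjusted p = 4.2e-06, edgeR's quasi-likelihood test with Benjamini-Hochberg adjustment, as for every adjusted p below). Basal cells had 88.6, 61.2, 76.3 and 91.1 CPM in TEBs, against 153, 113, 163 and 179.8 CPM in ducts. The basal groups did not overlap, and the log2 difference was -0.93 ± 0.22 (adjusted p = 0.0034). The basal and luminal falls differed by 0.60 ± 0.27, which did not pass the test (adjusted p = 0.12). It was 0.77 and called without YFP+ duct replicate 2 (adjusted p = 0.012) or without YFP+ TEB replicate 1 (adjusted p = 0.041). Within the luminal layer Tgfb3 was higher in GFP+/YFP- than in GFP-/YFP+ cells, by 2.57 ± 0.23 in TEBs and 3.26 ± 0.24 in ducts (adjusted p = 3.8e-07 and 3.7e-08).

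Tgfb2 had the largest difference of the 10 members between GFP+/YFP- and GFP-/YFP+ luminal cells. In TEBs it measured 57.9 and 48.3 CPM in GFP+ cells and 36.2 and 42.2 CPM in YFP- cells, against 0.18 and 0.13 CPM in GFP- cells and 1.08 and 0.092 CPM in YFP+ cells. In ducts it measured 73.0 and 60.4 CPM in GFP+ cells and 33.2 and 36.2 CPM in YFP- cells, against 0.22 and 5.47 CPM in GFP- cells and 1.87 and 0.90 CPM in YFP+ cells. No GFP-/YFP+ library reached a GFP+/YFP- library. The lowest values were within a few counts of the floor, and the highest GFP-/YFP+ value belonged to the duct library with keratinocyte transcripts. The log2 difference between GFP+/YFP- and GFP-/YFP+ cells was 7.22 ± 0.75 in TEBs (adjusted p = 2.6e-06) and 4.59 ± 0.63 in ducts (adjusted p = 3.1e-05). Without the keratinocyte libraries it was 7.16 in TEBs and 6.39 in ducts, and without replicate 1 of YFP+ TEBs 8.48 in TEBs. Basal cells had 10.5, 12.2, 19.96 and 20.5 CPM in TEBs, against 26.0, 32.4, 34.6 and 34.3 CPM in ducts. Although these ranges did not overlap, the difference of -1.07 ± 0.53 was not called (adjusted p = 0.12). With all libraries it was called by limma voom (-1.06, adjusted p = 3.6e-04). It was also called without the keratinocyte libraries (-1.07) and without either replicate of GFP- ducts (-1.02 each), all of which share the fit's estimate of the spread. In luminal cells the TEB fall of 1.39 ± 0.47 (adjusted p = 0.030) was not called without any 1 of 10 of the 16 luminal libraries. Without replicate 2 of GFP- ducts the log2 difference was -0.50 (adjusted p = 0.35), without the other 9 it was -1.46 to -1.18 (adjusted p = 0.050 to 0.090), and without replicate 1 of YFP+ TEBs it was -2.06 and called. The keratinocyte markers of replicate 2 of GFP- ducts stood at 2130 CPM, and their part in the luminal TEB difference was not tested.

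Tgfb1 took the reverse order of the luminal gates. In TEBs it measured 18.6 and 18.2 CPM in GFP+ cells and 14.9 and 12.6 CPM in YFP- cells, against 49.7 and 49.4 CPM in GFP- cells and 54.3 and 48.2 CPM in YFP+ cells. In ducts it measured 24.3 and 20.6 CPM in GFP+ cells and 10.3 and 9.89 CPM in YFP- cells, against 46.1 and 24.7 CPM in GFP- cells and 41.8 and 46.8 CPM in YFP+ cells. The gates did not overlap in TEBs, and in ducts the lowest GFP- library came within 1 CPM of the highest GFP+ library. Tgfb1 was lower in GFP+/YFP- cells by log2 differences of -1.66 ± 0.19 in TEBs and -1.40 ± 0.19 in ducts (adjusted p = 1.2e-06 and 7.9e-06). Basal cells had 12.3, 8.34, 11.7 and 11.2 CPM in TEBs, against 20.6, 11.97, 19.4 and 17.6 CPM in ducts. The highest TEB library exceeded the lowest duct library, both of the Elf5 mice, and the fall of 0.67 ± 0.18 (adjusted p = 0.0069) was no longer called without replicate 1 of the Elf5 basal ducts, where it was -0.40 (adjusted p = 0.092). In luminal cells the difference over the 4 gates was 0.21 ± 0.13 and not called (adjusted p = 0.22). It was 0.34 without replicate 1 of GFP- ducts. That group was then left with replicate 2 (24.7 CPM), the library with most keratinocyte transcripts, whose part in this value was not tested. The basal and luminal TEB differences differed by -0.89 ± 0.23 (adjusted p = 0.0071).

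**Figure D2:**
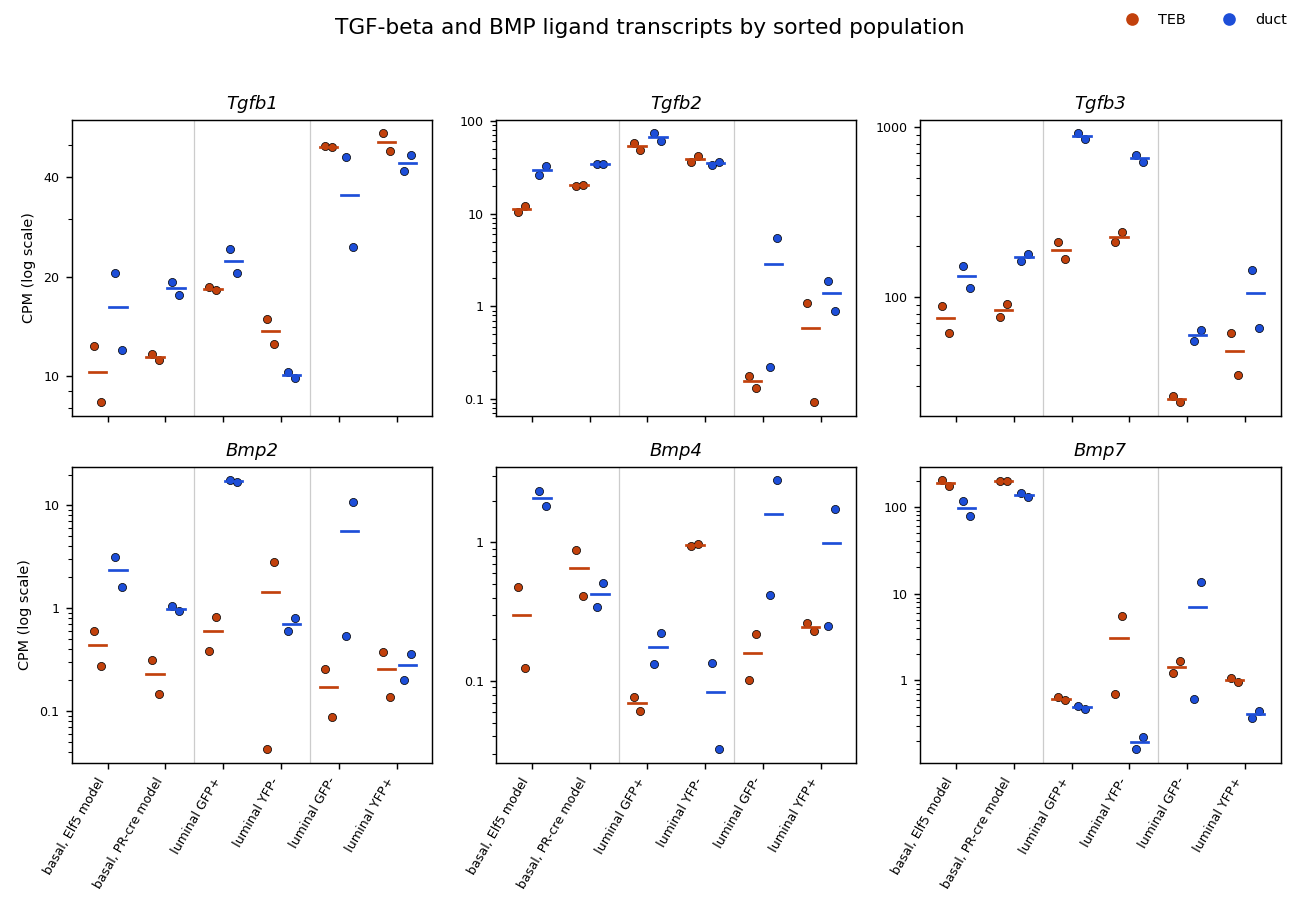
Level of the TGF-beta and BMP ligands in each library (CPM, log axis), by sorted population, with TEBs left of ducts in each population. Points are libraries and bars are group means of 2. Tgfb3 duct values of 917 and 845 CPM in GFP+ cells stand above every TEB value, Tgfb2 is low in GFP- and YFP+ cells, and Bmp7 is highest in basal cells.

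The make-up of the TGF-beta pool followed from these orders. Of the summed isoform transcripts per length, Tgfb3 made up 90.9 to 94.4% in GFP+/YFP- ducts and 72.3 to 82.7% in GFP+/YFP- TEBs. In GFP-/YFP+ cells it made up 23.1 to 41.0% in TEBs and 42.6 to 67.7% in ducts, and there Tgfb1 took 58.5 to 76.8% in TEBs. In basal cells the Tgfb3 share was 69.7 to 76.3% in TEBs and 72.6 to 77.2% in ducts, so TEBs and ducts overlapped in share while the sum did not: the 3 isoforms together reached 24.6 to 36.6 CPM per kb in basal TEBs, against 45.9 to 68.8 CPM per kb in basal ducts. The highest sums were those of GFP+/YFP- ducts, at 197 to 298 CPM per kb.

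Inhbb, the beta B subunit, was a luminal gene that was lower in TEBs over the luminal gates and higher in TEBs in the basal cells of the Elf5 mice. GFP+ cells had 226 and 235 CPM in TEBs, against 608 and 695 CPM in ducts. YFP- cells had 375 and 316 CPM in TEBs, against 1002 and 960.1 CPM in ducts. These gates held the highest levels and their TEB and duct libraries did not overlap. YFP+ cells had 128 and 139 CPM in TEBs, against 259.8 and 236 CPM in ducts. GFP- cells had 163 and 169 CPM in TEBs, against 149 and 235 CPM in ducts, the 1 luminal gate where the libraries overlapped. Over the luminal gates Inhbb fell by 1.03 ± 0.11 on the log2 scale in TEBs (adjusted p = 1.9e-06). The fall was larger in GFP+/YFP- than in GFP-/YFP+ cells, by -0.95 ± 0.21 (adjusted p = 0.0088). Basal cells had 18.7, 13.4, 9.93 and 7.04 CPM in TEBs, against 6.51, 6.71, 7.56 and 11.3 CPM in ducts. The Elf5 basal TEB libraries lay above all basal duct libraries and the PR-cre ones among them. The basal difference of 0.57 ± 0.16 (adjusted p = 0.0083) was 1.28 ± 0.23 within the Elf5 mice (adjusted p = 3.6e-04) and -0.15 ± 0.22 within the PR-cre mice (adjusted p = 0.70), and whether the models differed was not tested. By limma voom the basal difference had the same size and was not called (adjusted p = 0.083). The basal and luminal TEB differences differed by 1.59 ± 0.19 (adjusted p = 1.3e-05). Inhbb was lower in basal than in luminal cells by log2 differences of -4.13 ± 0.16 in TEBs and -5.73 ± 0.18 in ducts (adjusted p = 1.9e-12 and 1.1e-13).

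Inhba, the beta A subunit, was found mainly in GFP-/YFP+ luminal cells and most of all in those of the Elf5 mice. GFP- cells had 69.2 and 89.4 CPM in TEBs, against 22.3 and 16.6 CPM in ducts, and YFP+ cells 7.99 and 7.24 CPM in TEBs, against 4.48 and 4.89 CPM in ducts. GFP+ cells had 3.70 and 6.59 CPM in TEBs, against 0.84 and 2.03 CPM in ducts, and YFP- cells 0.85 and 0.53 CPM in TEBs, against 0.43 CPM and no count in ducts. TEB libraries lay above duct libraries in each of the 4 luminal gates. The luminal rise in TEBs was 1.55 ± 0.38 (adjusted p = 0.0052), and no single gate of 2 against 2 libraries was called by itself, although GFP- cells were by limma voom (2.04, adjusted p = 6.7e-06) and DESeq2 (1.98, adjusted p = 0.028). Without replicate 1 of YFP- ducts, the difference was 3.10, a value set by a group then left with no counts, and the GFP+/YFP- against GFP-/YFP+ difference of ducts given next was -7.20. GFP+/YFP- cells were lower than GFP-/YFP+ cells by log2 differences of -3.70 ± 0.54 in TEBs and -4.06 ± 0.59 in ducts (adjusted p = 4.3e-05 and 4.2e-05). Basal libraries held 0.18 to 1.34 CPM in TEBs and 0.060 to 0.97 CPM in ducts. The basal TEB difference of 0.37 ± 0.68 was not called (adjusted p = 0.71). Inhba made up 12.6 to 59.6% of the summed beta subunit transcripts per length in GFP-/YFP+ TEBs, against 4.58 to 29.4% in GFP-/YFP+ ducts, and at most 7.23% in GFP+/YFP- TEBs and 0.805% in GFP+/YFP- ducts.

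Fst, which encodes the secreted activin-binding protein follistatin, was expressed at a steady level in basal cells and over a very wide range in luminal cells. Basal cells had 325, 381, 261 and 344 CPM in TEBs, against 341, 203, 251 and 375 CPM in ducts. These ranges overlapped almost wholly, and the basal TEB difference was 0.16 ± 0.50 (adjusted p = 0.84). GFP- cells had 764 and 926 CPM in TEBs, against 92.1 and 111 CPM in ducts, and GFP+ cells 52.0 and 61.8 CPM in TEBs, against 3.25 and 4.78 CPM in ducts. YFP- cells had 1.21 and 20.4 CPM in TEBs, against 0.35 and 1.03 CPM in ducts, and YFP+ cells 0.53 and 0.81 CPM in TEBs, against 0.30 and 0.12 CPM in ducts. TEB libraries exceeded duct libraries in all 4 luminal gates, but from levels that differed by orders of magnitude between the mouse models. By gate the log2 TEB difference was 3.84 ± 0.83 in GFP+ cells, 3.06 ± 0.77 in GFP- cells, 3.99 ± 0.99 in YFP- cells and 1.61 ± 1.48 in YFP+ cells (adjusted p = 0.0052, 0.016, 0.013 and 0.61). The YFP- value rested on replicate 2 of the TEBs, which held keratinocyte transcripts at 405 CPM, and was 0.85 without it (adjusted p = 0.42). Each of the 3 gate calls was lost without 1 or more single libraries. The difference between the basal and the luminal TEB effect was -2.96 ± 0.73 (adjusted p = 0.0082), or -2.17 without that library (adjusted p = 3.6e-04) and -2.68 by limma voom, where it was not called (adjusted p = 0.051). Between GFP+/YFP- and GFP-/YFP+ cells of TEBs the difference was 0.06 ± 0.57 and not called (adjusted p = 0.99), and without the same library it was -1.51 and called (adjusted p = 0.0024). Basal cells had more Fst than luminal cells by 3.75 ± 0.45 in TEBs (4.54 without that library) and 6.71 ± 0.52 in ducts (adjusted p = 6.2e-06 and 6.3e-08), although the GFP- TEB libraries held more than any basal library.

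Fstl3, a relative of follistatin that also binds activins, was a basal duct gene. Basal cells had 2.42, 3.37, 4.39 and 6.0 CPM in TEBs, against 19.7, 17.4, 29.9 and 31.8 CPM in ducts. The groups did not overlap in either model, and Fstl3 fell by 2.63 ± 0.21 on the log2 scale in basal TEBs (adjusted p = 6.3e-08). The fall was nearly the same in the Elf5 mice (-2.68 ± 0.30) and the PR-cre mice (-2.57 ± 0.30). Luminal libraries ranged between 1.13 and 2.90 CPM, with medians of 1.67 CPM in TEBs and 2.08 CPM in ducts, and the luminal difference of -0.20 ± 0.15 was not called (adjusted p = 0.32). The basal and luminal TEB differences differed by -2.42 ± 0.25 (adjusted p = 2.6e-06). An overlapping gene, Prss57, reached at most 0.76 CPM in any library.

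**Figure D3:**
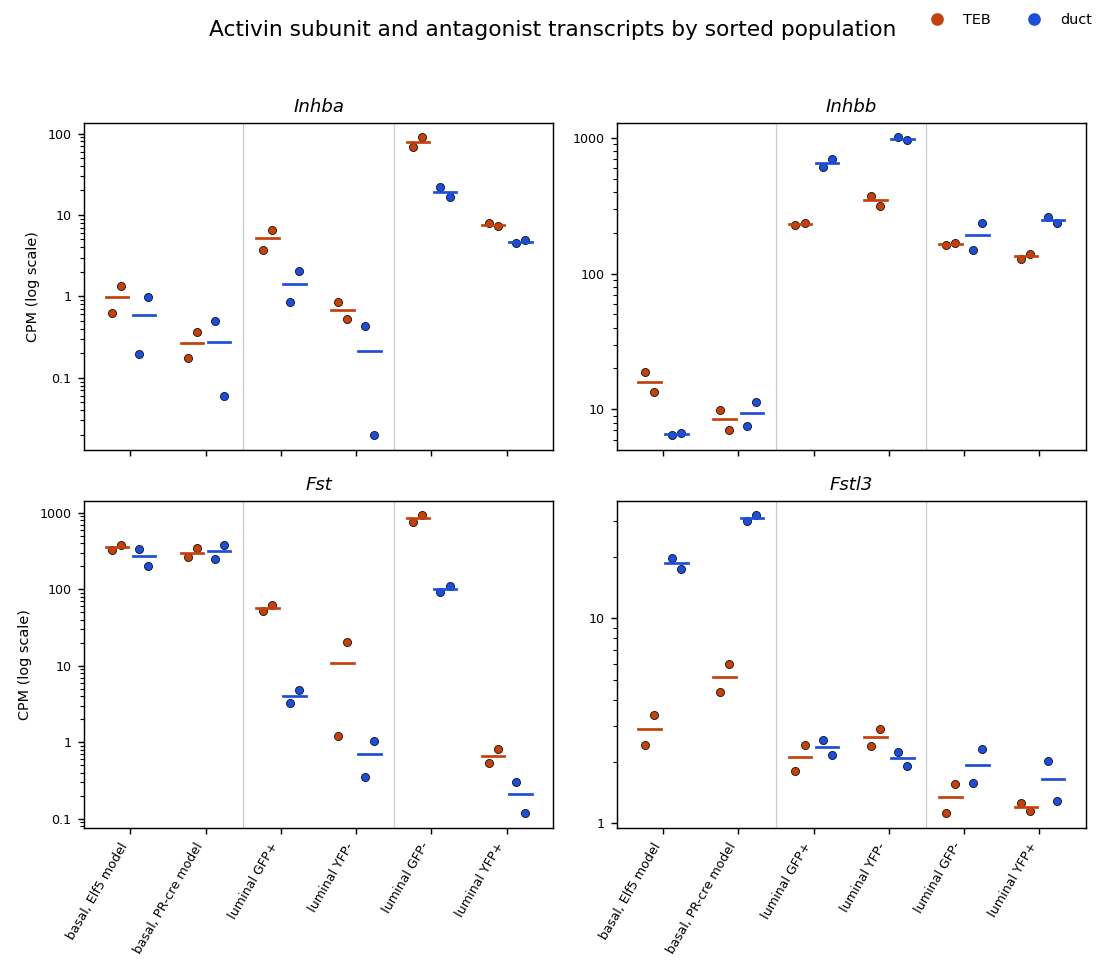
Level of the activin subunits Inhba and Inhbb and of the antagonists Fst and Fstl3 in each library (CPM, log axis), by sorted population, with TEBs left of ducts. Points are libraries and bars are group means of 2; the library with no Inhba count, YFP- duct replicate 2, is drawn at 0.02 CPM. Fst spans from 0.12 CPM in a YFP+ duct library to 926 CPM in a GFP- TEB library, while its basal values stay between 203 and 381 CPM.

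The ratio of Fst to the summed beta subunits, per length, set the basal and luminal layers apart. It was 29.0 to 77.7 in basal TEBs and 39.3 to 88.1 in basal ducts. In GFP-/YFP+ TEBs it was 3.91 and 4.04 in the GFP- libraries and 0.0064 and 0.0093 in the YFP+ libraries. In GFP-/YFP+ ducts it was 0.79 and 0.72 in the GFP- libraries and 0.0020 and 0.00088 in the YFP+ libraries. In GFP+/YFP- ducts, where the beta subunits were most abundant (144 to 236 CPM per kb), it was 0.0097 and 0.012 in the GFP+ libraries and 0.00064 and 0.0020 in the YFP- libraries, so the lowest ratios were shared by YFP+ and YFP- ducts. Basal cells thus held many more Fst transcripts than subunit transcripts in all 8 libraries, and 14 of the 16 luminal libraries held fewer. These are ratios of transcripts, and protein was not measured.

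Bmp7 was confined to the basal layer at levels above a few CPM, apart from a pair of luminal libraries. Basal cells had 202, 171, 199 and 199.6 CPM in TEBs, against 117, 77.4, 142 and 129 CPM in ducts. Every basal TEB library lay above every basal duct library, yet the difference of 0.75 ± 0.57 was not called (adjusted p = 0.32). With all libraries it was called by limma voom (0.76, adjusted p = 0.00435). It was also called without the keratinocyte libraries (0.74), in a fit whose estimate of the spread all libraries share. The luminal libraries held 0.16 to 1.66 CPM except for 5.51 CPM in YFP- TEB replicate 2 and 13.5 CPM in GFP- duct replicate 2, the libraries with keratinocyte transcripts. Bmp7 was higher in basal than in luminal cells by 7.22 ± 0.57 in TEBs and 7.30 ± 0.61 in ducts (adjusted p = 7.7e-08 and 1.4e-07), and by 7.76 and 8.19 without those libraries. It made up 96.1 to 99.8% of the summed transcripts of the 3 BMPs per length in basal cells.

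Bmp2 was low apart from GFP+ ducts. GFP+ cells had 0.39 and 0.81 CPM in TEBs, against 17.6 and 16.8 CPM in ducts, and YFP- cells 0.043 and 2.82 CPM in TEBs, against 0.59 and 0.81 CPM in ducts. The gates that are matched by reporter thus differed: in ducts Bmp2 was 4.62 ± 1.36 higher in GFP+ than in YFP- cells (adjusted p = 0.034), a call that was lost without any 1 of the 4 libraries compared. GFP- cells had 0.26 and 0.087 CPM in TEBs, against 0.53 and 10.8 CPM in ducts, the higher again in the library with keratinocyte transcripts, and YFP+ cells 0.37 and 0.14 CPM in TEBs, against 0.20 and 0.36 CPM in ducts. Over the luminal gates Bmp2 fell by 2.24 ± 0.67 in TEBs (adjusted p = 0.014). Without GFP- duct replicate 2 the difference was -1.40 and not called (adjusted p = 0.064), without YFP- TEB replicate 2 it was -3.48, and without both -2.64 (adjusted p = 7.5e-05). Basal cells had 0.60, 0.27, 0.32 and 0.15 CPM in TEBs, against 3.12, 1.61, 1.05 and 0.93 CPM in ducts. The groups did not overlap, but the difference of -2.25 ± 0.93 was not called (adjusted p = 0.062). With all libraries it was called by DESeq2 (-2.33, adjusted p = 0.0141). It was also called without the keratinocyte libraries (-2.26), without either replicate of GFP- ducts (-2.21 each) and without either replicate of YFP- TEBs (-2.25 each). None of these libraries is basal, and all share the fit's estimate of the spread.

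Bmp4 stayed under 3 CPM in all 24 libraries. Basal cells had 0.47, 0.12, 0.89 and 0.41 CPM in TEBs, against 2.33, 1.82, 0.34 and 0.51 CPM in ducts, with the Elf5 ducts above the rest and no common direction in the models. YFP- cells had 0.94 and 0.98 CPM in TEBs, against 0.14 and 0.032 CPM in ducts, while GFP- cells had 0.10 and 0.22 CPM in TEBs, against 0.42 and 2.80 CPM in ducts. GFP+ cells stayed at or below 0.22 CPM, and YFP+ cells held 0.26 and 0.23 CPM in TEBs, against 0.25 and 1.74 CPM in ducts. In ducts Bmp4 was lower in GFP+/YFP- than in GFP-/YFP+ cells by a log2 difference of -3.33 ± 0.77 (adjusted p = 0.0017; -2.38 without the keratinocyte libraries). The TEB difference of GFP+/YFP- cells exceeded that of GFP-/YFP+ cells by 3.70 ± 1.07 (adjusted p = 0.035), and leaving out any 1 of 13 luminal libraries ended the call. The highest Bmp4 count in a library was 100, and most were under 20.

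The direct tests of whether the TEB difference itself varied called few members. Between the basal and luminal layers it varied in 4 of the 10, with Inhbb on the basal side and Fstl3, Fst and Tgfb1 on the luminal side, where 26.3% of genes were called. Between GFP+/YFP- and GFP-/YFP+ luminal cells it varied in Inhbb and Bmp4, where 10.6% of genes were called. By sorted population, with 2 libraries against 2, the members called were 3 in Elf5 basal cells (36.4% of genes called), 2 in PR-cre basal cells (24.7%), 4 in GFP+ cells (22.8%), 5 in GFP- cells (18.5%), 2 in YFP+ cells (7.86%) and 4 in YFP- cells (18.4%). Of the 5 in GFP- cells, Tgfb2, Tgfb3, Bmp2 and Bmp4 were not called without the library with keratinocyte transcripts, and Fst measured 3.21 without it (adjusted p = 0.072) and 3.19 without both such libraries (adjusted p = 6.4e-04).

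**Figure D4:**
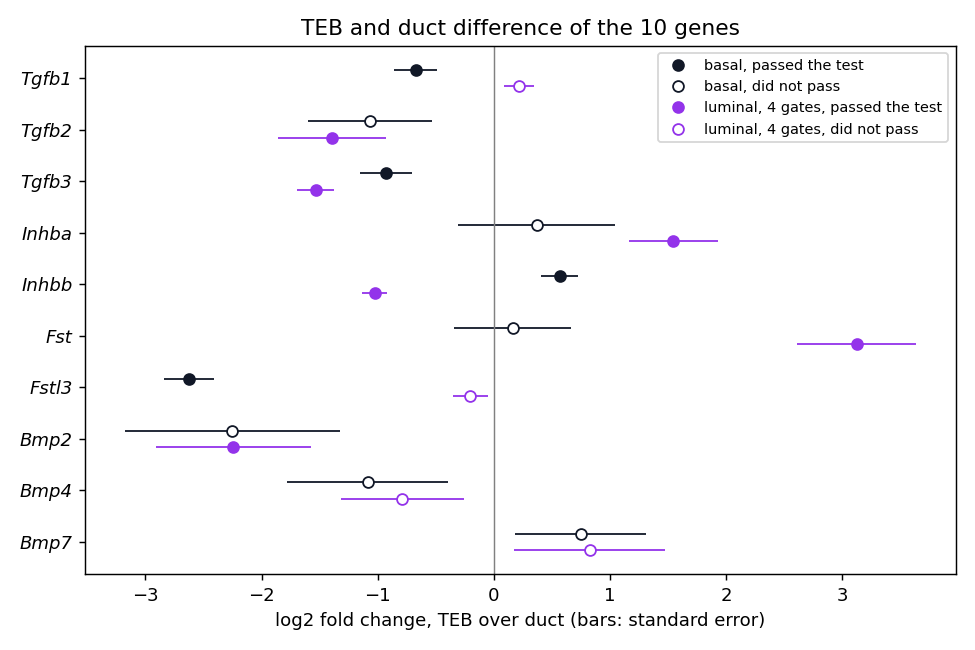
Log2 difference between TEBs and ducts for each gene in basal cells and in luminal cells over the 4 gates, with bars of 1 SE (filled points passed the test, open points did not). Inhbb lies at 0.57 in basal cells and -1.03 in luminal cells, Fstl3 at -2.63 and -0.20, and Fst at 0.16 and 3.12.

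The mouse models were compared over matched gates, which mixes genotype with the gate. Inhba, Fst and Bmp2 were higher in the Elf5 mice, and no member was called lower in the main fit, where 26.9% of all genes were called. The log2 differences were 2.30 ± 0.34 for Inhba, 4.02 ± 0.37 for Fst and 1.54 ± 0.54 for Bmp2 (adjusted p = 1.3e-04, 3.1e-06 and 0.045), with Inhba at 3.34 without replicate 1 of YFP- ducts, and the Bmp2 call was lost in most alternatives. The Bmp2 value was 0.98 without replicate 2 of GFP- ducts (adjusted p = 0.13) and 2.37 without replicate 2 of YFP- TEBs. Under alternatives some members were called lower in the Elf5 mice. Tgfb3 was so by DESeq2 (-0.35, adjusted p = 0.0158) and without some single libraries (-0.44 to -0.40). Inhbb was so without the keratinocyte libraries (-0.24), and Tgfb2 without replicate 2 of GFP- ducts (-0.71). The Fst difference lay in the luminal gates. GFP- cells exceeded YFP+ cells by 10.30 ± 1.12 in TEBs and 8.85 ± 1.17 in ducts (adjusted p = 5.9e-05 and 3.6e-04), while Elf5 and PR-cre basal cells differed by 0.01 ± 0.50 (adjusted p = 1.0). Inhba was higher in GFP- than in YFP+ cells by 3.38 ± 0.72 in TEBs (adjusted p = 0.0089) and by 2.05 ± 0.70 in ducts, where it was not called (adjusted p = 0.079) but was by limma voom (adjusted p = 0.0024) and DESeq2 (adjusted p = 0.032). The Inhba call in TEBs was lost without any 1 of 3 single libraries. Between GFP- and YFP+ cells 2 members were called in TEBs (7.76% of genes) and 2 in ducts (9.81%), the second in ducts being Bmp7 at 4.10 ± 1.15, or 0.56 without the keratinocyte libraries. Between GFP+ and YFP- cells, Inhba was higher (2.88 ± 0.77) and Bmp4 lower (-3.73 ± 1.11) in TEBs, where 11.0% of genes were called, and Tgfb1 (1.15 ± 0.26) and Bmp2 higher in ducts, where 14.0% were. Each of these calls was lost without 1 or more single libraries. In basal cells Fstl3 alone was called between the models, at -0.79 ± 0.20 (adjusted p = 0.019; 9.98% of genes), a call lost without any 1 of 5 of the 8 basal libraries (adjusted p up to 0.094). None of the TEB differences was called as unequal between GFP- and YFP+ cells, where 0.193% of genes were called and 2 libraries a group leave standard errors of 0.30 to 1.99 on the log2 scale for the members.

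The lists of other pathway genes are read beside the shares of all genes called between TEBs and ducts, 43.6% in basal cells and 38.7% in luminal cells. Of the 14 receptors and co-receptors, 1 was higher and 7 lower in basal TEBs, and 2 were higher and 7 lower in luminal TEBs; the shares were 57.1% and 64.3%, and the list's median was -0.62 in basal cells and -0.26 in luminal cells. Bmpr1b, a BMP type I receptor, was the 1 that rose in basal TEBs, by 3.35 ± 0.47 (adjusted p = 2.4e-05). It lay between 2.29 and 46.1 CPM in basal TEBs, against 0.03 to 8.51 CPM in basal ducts, so the ranges overlapped across models. The activin type II receptor Acvr2a fell by 1.36 ± 0.18 in basal TEBs, to 53.2 to 75.9 CPM, against 134 to 192 CPM in ducts. Tgfbr2, the type II receptor of TGF-beta, fell by 0.72 ± 0.09 in basal TEBs, to 55.6 to 67.5 CPM, against 87.8 to 117 CPM in ducts. The type I receptor Tgfbr1 fell by 0.61 ± 0.14 in basal TEBs but rose by 0.63 ± 0.10 in luminal TEBs, and these differed by -1.24 ± 0.17 (adjusted p = 4.6e-05). The co-receptor endoglin (Eng) did likewise, at -1.10 ± 0.25 and 0.67 ± 0.17. Tgfbr3 (betaglycan), which presents TGF-beta2 and binds inhibins, was higher in basal than in luminal cells by 6.72 ± 0.43 in TEBs and 5.45 ± 0.40 in ducts, and within the luminal layer higher in GFP+/YFP- cells by 5.14 ± 0.58 in TEBs. Tgfbr2 ran against it, with -2.03 ± 0.09 in GFP+/YFP- relative to GFP-/YFP+ TEBs, where it lay between 84.5 and 127 CPM, against 387 to 467 CPM.

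Of the 8 Smads, 1 was higher and 3 were lower in basal TEBs (median -0.22), and none higher and 3 lower in luminal TEBs (median -0.14); these shares of 50% and 37.5% were near those of all genes. The inhibitory Smads, which dampen receptor signalling and are themselves induced by it, fell in basal TEBs, Smad7 by 1.19 ± 0.16 and Smad6 by 0.98 ± 0.18 (adjusted p = 1.1e-05 and 3.4e-04). In luminal cells they measured -0.14 ± 0.11 and -0.28 ± 0.13 and were not called (Smad6 was by DESeq2, adjusted p = 0.049), and the basal and luminal differences of Smad7 differed by -1.06 ± 0.19 (adjusted p = 5.3e-04). Smad9 fell by 1.92 ± 0.73 in basal TEBs and 3.02 ± 0.83 in luminal TEBs, at levels of at most 4.96 CPM. The basal call ended without any 1 of the 8 basal libraries (-2.15 to -1.68), and the luminal difference was -1.25 without replicate 2 of GFP- ducts (adjusted p = 1.0).

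The other antagonists, of which 12 of 13 were tested, were mostly basal genes: 9 were higher and none lower in basal than in luminal cells, both in TEBs and in ducts, with medians of 3.12 and 3.55 (58.8% of all genes called in TEBs and 63.3% in ducts). Fstl1, another follistatin-related protein, was higher by 7.64 ± 0.21 in TEBs and 8.73 ± 0.22 in ducts. Sostdc1, an inhibitor of BMP and Wnt ligands, was higher by 7.58 ± 0.88 and 3.83 ± 0.74, or 7.04 in ducts without replicate 2 of GFP- ducts, and the BMP pseudoreceptor Bambi by 4.27 ± 0.23 and 3.28 ± 0.22. Between TEBs and ducts, 3 fell and none rose in basal cells, among them the BMP antagonist chordin (Chrd) by 2.87 ± 0.68, and 4 fell and 1 rose in luminal cells. Fibroblasts also express several of these genes, and the fibroblast sums given above were higher in basal libraries. Of 22 other ligands of the superfamily, 16 were tested, and Gdf15, a stress-induced ligand, was the 1 called between TEBs and ducts, at -1.64 ± 0.46 in basal and -1.28 ± 0.36 in luminal cells, at levels of at most 3.79 CPM. The basal Gdf15 value was -1.22 (adjusted p = 0.061) without replicate 1 of the Elf5 basal ducts and -1.37 (adjusted p = 0.055) without replicate 1 of the Elf5 basal TEBs, and the luminal one -2.18 without replicate 2 of GFP- TEBs.

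Of 11 genes in a list drawn up for the latency and activation of TGF-beta, 3 rose and 5 fell in basal TEBs (median -1.01). In luminal TEBs 1 rose and 7 fell (median -0.45), a share of 72.7% in each layer. Ltbp2, a matrix protein of the latent TGF-beta binding family, was at 18.0 to 185 CPM in basal TEBs, against 582 to 1453 CPM in basal ducts, a fall of 4.15 ± 0.34 (adjusted p = 3.4e-07). Ltbp1, which anchors latent TGF-beta, rose by 1.39 ± 0.19 in basal TEBs and fell by 0.85 ± 0.13 in luminal TEBs, a difference of 2.23 ± 0.23 (adjusted p = 4.5e-06). The proprotein convertase Furin, which cleaves TGF-beta precursors, moved in the same way by smaller amounts, at 0.46 ± 0.09 and -0.21 ± 0.06, the second not called without replicate 2 of YFP+ TEBs (-0.17, adjusted p = 0.057). Its relative Pcsk6 lay at 271 to 466 CPM in basal TEBs, against 6.43 to 105 CPM in basal ducts. Luminal TEBs had 14.1 to 53.9 CPM, against 2.37 to 8.51 CPM in luminal ducts, and neither layer showed any overlap.

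Of 9 known SMAD2/3 targets, 1 rose and 5 fell in basal TEBs (median -0.92), and 2 rose and 3 fell in luminal TEBs (median -0.36), shares of 66.7% and 55.6%. The feedback regulators Pmepa1, Skil and Ldlrad4 fell in basal TEBs by 1.35 ± 0.12, 0.92 ± 0.08 and 1.51 ± 0.23. Pmepa1 measured 0.15 ± 0.08 in luminal cells and was not called there (0.21 and adjusted p = 0.044 without replicate 1 of GFP- TEBs), and the basal and luminal differences differed by -1.50 ± 0.15 (adjusted p = 1.4e-06). Cdkn2b, which encodes the cell cycle inhibitor p15 and is induced by TGF-beta, went the other way, with rises of 4.56 ± 0.42 in basal and 1.83 ± 0.23 in luminal TEBs. It lay between 1.22 and 4.17 CPM in basal TEBs, against 0.03 to 0.36 CPM in basal ducts, where the lowest libraries were under the floor. Of 8 SMAD1/5 targets, none rose and 4 fell in basal TEBs (median -0.62), and 2 rose and 4 fell in luminal TEBs (median -0.28), shares of 50% and 75%. The Id genes encode inhibitors of basic helix-loop-helix factors. In basal TEBs Id3 fell by 2.05 ± 0.19, Id1 by 1.56 ± 0.56 and Id2 by 0.98 ± 0.30, whereas in luminal TEBs Id3 rose by 0.70 ± 0.13 while Id1 and Id2 fell by 1.10 ± 0.40 and 1.20 ± 0.21. The basal Id1 call ended without any 1 of the 8 basal libraries (-1.63 to -1.38), and the luminal Id1 difference was -0.28 without replicate 2 of GFP- ducts (adjusted p = 0.30). The basal Id2 difference was -0.82, -0.81, -0.92 and -0.87, and not called, without Elf5 TEB replicate 1, Elf5 duct replicate 2, PR-cre TEB replicate 1 and PR-cre duct replicate 2. The Id genes also split between luminal gates: in TEBs Id1 and Id2 were higher in GFP+/YFP- than in GFP-/YFP+ cells by 2.30 ± 0.59 and 3.30 ± 0.33, and Id3 was lower by a log2 difference of -2.67 ± 0.19. The homeobox gene Msx2 was lower in GFP+/YFP- cells by -3.19 ± 0.19 in TEBs, and Hey1, which is also a Notch target, was higher by 5.15 ± 0.45.

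The members' profiles over the 12 group means were partly shared. On log2 CPM, the closest pair of members in the same direction was Tgfb1 and Inhba (Pearson's r = 0.83) followed by Tgfb2 and Tgfb3 (r = 0.81), and the most opposed were Inhbb and Bmp7 (r = -0.96) and Tgfb1 and Tgfb2 (r = -0.82). These are descriptions over 12 points that share libraries and depth. Among all genes, the profiles most like that of Tgfb3 included that of Hey2 (r = 0.971), and those most like Tgfb2 were Khdrbs3 (0.988) and Mgll (0.986), and for Tgfb1 Edf1 (0.969) and Slc35f6 (0.968). Inhbb was closest to Ptpn18 (0.984) and Trim14 (0.983), and Inhba to Igf2bp1 (0.977) and Slc44a5 (0.965). Fst was closest to Mex3b (0.956) and Cachd1 (0.923), Fstl3 to Tprgl (0.979) and Xkr4 (0.977), and Bmp7 to Crispld1 (0.992) and Col18a1 (0.988). The low genes had lower correlations, with Mir1938 (0.90) and Arid4a (0.882) for Bmp2 and Gm5512 (0.937) and Rgs4 (0.908) for Bmp4. Ordered by group mean, neighbouring groups were apart, with no overlap between libraries, at 8 of the 11 steps for Inhbb and for Bmp7, 6 for Tgfb2 and Fst, 5 for Tgfb3, 4 for Tgfb1 and Inhba, 3 for Fstl3, and 2 for Bmp2 and Bmp4. Those of Bmp7 included steps between luminal groups with means of 0.19 to 1.43 CPM. Such steps were not counted over all genes, so these counts are not a result about the members.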

How the data were processed

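The deposited gene counts are whole numbers per Entrez gene and library, made by the authors with featureCounts on mm10, per the submitters' processing notes; no aligner or strand setting is named there, and the library kit (TruSeq RNA v2, per the labels' protocols) does not mark strand, so reads of overlapping genes cannot be assigned by strand. Symbols were matched through RefSeq (25275 genes) and GENCODE (18), and 1886 genes without a symbol held 1.22% of counts. Totals per library were 31264622 to 52495208.

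All 24 libraries were fitted together, 1 coefficient per group, in edgeR 4.0.16 (R 4.3.3), with scaling by trimmed means of M values (TMM), filterByExpr (minimum count 10, minimum total 15), robust quasi-likelihood tests and Benjamini-Hochberg adjustment over 18109 genes. Contrasts averaged group means. Alternatives were RLE scaling, no filter, DESeq2 1.42.0, limma voom 3.58.1, a replicate block, each library left out, and the 2 keratinocyte-bearing libraries left out. The test was tried on simulated counts. Levels per kb used the gene lengths given in the deposited files. Replicates of a group differed by more than sampling noise, with 17.2 to 164.7 times the chi-square per degree of freedom that counting alone gives. The main fit did not pair samples by replicate number. Deviations of same-numbered libraries correlated weakly (r of 0 to 0.15 over 30 pairs of groups), which cannot show whether they shared a preparation.

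All 10 members are named, with genes of the pathway lists and the 2 genes of most similar profile to each member, of which 1 is not reported here. The members, the lists, the libraries left out and 6 comparisons between single gates were chosen with earlier results of these data known.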

Additional observations from a re-analysis of the deposited data

Results flagged for a closer look

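In 6 of 60 sets of 4 libraries (a member in 1 population and site), 1 library stood apart from the other 3 by Dixon's criterion at the 95% level; chance alone gives about 1 in 20. Those libraries were YFP+ TEB replicate 1 for Tgfb2 (1.08 CPM), YFP+ duct replicate 1 for Tgfb3 (145 CPM) and Elf5 basal TEB replicate 2 for Bmp7 (171 CPM). The other 3 belonged to the pair with keratinocyte transcripts: GFP- duct replicate 2 for Bmp2 (10.8 CPM) and Bmp7 (13.5 CPM), and YFP- TEB replicate 2 for Bmp7 (5.51 CPM).

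For 5 members a test of the difference itself showed unequal TEB effects. Between basal and luminal cells the log2 TEB effect differed by 1.59 for Inhbb, -2.42 for Fstl3, -2.96 for Fst and -0.89 for Tgfb1, where 26.3% of all genes were called. Between GFP+/YFP- and GFP-/YFP+ luminal cells it differed by -0.95 for Inhbb and by 3.70 for Bmp4, where 10.6% of all genes were called. By limma voom neither the Fst nor the Bmp4 difference was called, and that of Bmp4 was also lost with a replicate block.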

How the results depend on the processing

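Over 9 comparisons the 10 members gave 90 differences, of which 46 were called, and 37 of those kept call and direction under all 30 alternatives. Without both keratinocyte-bearing libraries, the GFP+/YFP- against GFP-/YFP+ difference of TEBs was -1.52 for Fst and -0.89 for Bmp7, the TEB effect of Bmp2 between these cells -3.51, the TEB difference of Bmp7 in GFP- cells 1.22 and of Bmp2 in YFP- cells -3.95, and Bmp2 was 3.70 between GFP+ and YFP- TEBs, each opposite in sign to the value with them. For Sostdc1 the luminal TEB difference was then 0.08, and the GFP+/YFP- against GFP-/YFP+ difference of ducts 5.50. Leaving out single libraries gave ranges of -1.51 to 0.52 for Fst, -3.40 to 0.19 for the first and -1.66 to 5.51 for the second Sostdc1 value. Without that pair of libraries 7 members in place of 4 differed between basal TEBs and ducts (3 to 6 without single libraries). The TEB effect differed between GFP+/YFP- and GFP-/YFP+ cells in 2 members (10.6% of genes called), 4 by DESeq2, 1 by limma voom and 1 with a replicate block. Shares of all genes called in the 9 comparisons are those given with the results above. The number of all genes called also moved as single libraries were left out. Counts of members under other settings are therefore not a result about the members. Deviations of same-numbered libraries correlated weakly (r over 0.1 in 2 of 30 pairs of groups), which cannot show whether replicate numbers pair the samples. With the block the model difference of Bmp2, 1.68, was not called (adjusted p = 0.22). Nor was the TEB effect of Bmp4 between GFP+/YFP- and GFP-/YFP+ cells, 3.65 (adjusted p = 0.053), and the block ended no other call in the 9 comparisons. By limma voom 5 calls of these comparisons were lost: Inhbb in basal TEBs (0.57, adjusted p = 0.083), Fst between layers (-2.68, adjusted p = 0.051), Tgfb2 in luminal TEBs (-1.24, adjusted p = 0.052), the same Bmp4 effect (3.17, adjusted p = 0.099) and the Bmp2 model difference (1.65, adjusted p = 0.093). The cause of these changes was not tested. With 2 libraries a group, and counts within a few of the floor for Bmp2, Bmp4, Inhba and Tgfb2 in some gates, differences of these genes were measured with wide errors.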
